A study of Mus musculus with 8 samples.

Results

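The genes described here are T, Eomes, Mixl1, Gsc, Mesp1, Lhx1 and Cer1, 7 of the 22002 named units in 8 RNA libraries of mouse pluripotent stem cells. A unit is a gene symbol, or several symbols that a library's table joined. The 7 were chosen by symbol as genes of gastrulation, with their levels in these libraries already known, so their values are given without tests. 6 of them encode transcription factors, while Cer1 encodes a secreted antagonist.

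There were 4 groups of 2 libraries. CDGC1 and CDGC6 are stem cell lines obtained from early teratoma cells of the newborn testis. Both were Dnd1ter/ter on the 129Sv background, carried the Oct4deltaPE-GFP reporter and were at passages 15 to 18. Dnd1 encodes an RNA-binding protein of germ cells. Dnd1-KD cells are embryonic stem (ES) cells with a knockdown of Dnd1, and the controls are E14tg2a ES cells. Per the labels both ES groups were 129/Ola, of wild-type genotype and at passages 10 to 12. All cells grew in DMEM with serum and the cytokine LIF. Each derived line is a single line, and its strain, genotype, origin and passage differ from the controls together, so their contributions cannot be told apart. Whether a group's pair of libraries stems from 1 culture or from 2 is not in the labels. Each p-value therefore measures only how far these libraries spread, which can be technical.

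During gastrulation, epiblast cells pass through the primitive streak and become mesoderm or definitive endoderm. NODAL and WNT signals turn on the T-box factors T and Eomes in the streak. Eomes acts upstream of Mesp1 in cardiac mesoderm and, with Lhx1, Gsc and Mixl1, in anterior streak and endoderm, where Cer1 is a known product. Subpopulations of ES cells in serum are known to carry T. Eomes, Gsc, Lhx1 and Cer1 are also known in extraembryonic endoderm, and Eomes in trophoblast.

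The deposited values are FPKM, fragments scaled to transcript length and library size, with an interval for each value. The intervals implied about 10.7 M to 18.0 M fragments per library. They can hold more than counting error, so fragment numbers derived from them are approximate and, for abundant genes, may be too low. Dnd1 was listed at 0 in the 6 CDGC1, CDGC6 and control libraries and was joined with Hars in both Dnd1-KD libraries, so the knockdown could not be checked. The pluripotency gene Pou5f1 was at 951 and 1027 FPKM in CDGC1, 1125 and 1339 FPKM in CDGC6, 531 and 457 FPKM in Dnd1-KD, and 944 and 934 FPKM in control. Some other ES markers were at or near 0 in CDGC1. Zfp42, a naive-state zinc finger gene, was at 0.0220 and 0 FPKM there, against 335 and 352 FPKM in control. Esrrb, a nuclear receptor of the naive state, was at 0.211 and 0.140 FPKM in CDGC1, against 78.6 and 82.9 FPKM in control.

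The stretches of 250 bases before the start of T, Eomes and Cer1 are shown because these genes separate the groups in 3 different ways: T sets Dnd1-KD apart, Eomes sets the derived lines apart from each other, and Cer1 differs most between libraries of a line. They are RefSeq windows on GRCm38.p6, the build of mm10, at chr17:8434173-8434422 on the plus strand, chr9:118477939-118478188 on the plus strand and chr4:82885152-82885401 on the minus strand. Capitals mark a T-box binding motif (AGGTGT) in T and a SMAD motif (CAGACA) in Cer1.
T: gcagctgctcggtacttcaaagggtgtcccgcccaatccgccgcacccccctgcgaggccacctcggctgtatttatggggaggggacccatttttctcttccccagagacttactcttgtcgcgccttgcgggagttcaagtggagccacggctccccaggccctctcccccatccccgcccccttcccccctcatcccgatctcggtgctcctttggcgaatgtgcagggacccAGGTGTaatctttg
Eomes: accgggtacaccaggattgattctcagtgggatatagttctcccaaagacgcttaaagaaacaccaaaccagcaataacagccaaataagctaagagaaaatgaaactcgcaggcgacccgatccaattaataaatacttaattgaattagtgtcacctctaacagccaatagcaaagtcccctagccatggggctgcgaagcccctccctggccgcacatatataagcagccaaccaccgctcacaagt
Cer1: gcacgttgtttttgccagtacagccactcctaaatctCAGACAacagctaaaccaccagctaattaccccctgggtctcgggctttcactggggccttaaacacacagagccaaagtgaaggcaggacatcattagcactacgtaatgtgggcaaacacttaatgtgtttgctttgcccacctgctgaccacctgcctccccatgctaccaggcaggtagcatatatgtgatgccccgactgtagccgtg

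6 of the 7 genes matched a RefSeq window, and Mixl1 is named only. The windows were searched on both strands for 5 motifs. AGGTGT, held by 11.8% of all 32851 windows, lay 14 to 9 bases before the T start and 233 to 228 bases before the Mesp1 start. CAGACA (17.1% of windows) lay 213 to 208 bases before the Cer1 start. The TCF and LEF motif CTTTGAT (3.21%) lay 31 to 25 bases before the Mesp1 start. The FOXH1 motif AATCCAC (2.10%) and the paired-like homeodomain motif TAATCC (6.25%) were in none of the 6 windows. No matched stretches overlapped. A match describes letters only, and these motifs are common enough to occur in windows of many genes.

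T was high in both derived lines, intermediate in control ES cells and lowest in Dnd1-KD cells. T, also called Brachyury, is the founding T-box factor and is needed for posterior mesoderm and notochord. The gene lies at chr17:8434423-8442496 on the plus strand (mm10, GENCODE vM21). It was measured at 53.9 and 77.1 FPKM in CDGC1, 69.1 and 43.7 FPKM in CDGC6, 1.63 and 1.79 FPKM in Dnd1-KD, and 18.1 and 23.7 FPKM in control. The derived lines overlapped each other, and both lay above the controls, which lay above both Dnd1-KD libraries. The mean was 65.5 ± 16.4 FPKM in CDGC1, 56.4 ± 17.9 FPKM in CDGC6, 1.71 ± 0.111 FPKM in Dnd1-KD and 20.9 ± 3.97 FPKM in control (SD, n = 2 each). Dnd1-KD was thus 12.2-fold lower than control, while CDGC1 was 3.14-fold and CDGC6 2.70-fold higher. Differences of log2(FPKM + 1), with the standard error (SE) of a model fitted across all units, were 1.59 ± 0.27 for CDGC1 minus control, 1.37 ± 0.27 for CDGC6 minus control and -3.00 ± 0.27 for Dnd1-KD minus control. CDGC1 minus CDGC6 was 0.23 ± 0.27, less than its SE. The fragments behind T numbered 172 and 84 in Dnd1-KD and 1086 and 966 in control, so its low level in Dnd1-KD was not at the detection floor. Control library 1 also held an entry with no gene name over a T exon, 143 bases long, of 51.4 FPKM from 26 fragments, which was not added to T. In bulk RNA, fewer cells with a transcript and less transcript per cell cannot be told apart.

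Eomes separated the derived lines from each other. Eomes, a T-box factor of the anterior streak, is needed for definitive endoderm and for cells to leave the epiblast. It lies at chr9:118478212-118486132 on the plus strand. Eomes was at 68.4 and 80.0 FPKM in CDGC1, 15.4 and 8.47 FPKM in CDGC6, 2.37 and 2.71 FPKM in Dnd1-KD, and 3.08 and 3.53 FPKM in control. All 4 groups were apart from their neighbours in this order, though the step between Dnd1-KD and control was small. The CDGC1 mean of 74.2 ± 8.26 FPKM (SD, n = 2) was 6.22-fold that of CDGC6 (11.9 ± 4.88) and 22.4-fold that of control (3.31 ± 0.319). The log2 difference was 4.12 ± 0.25 for CDGC1 minus control, 1.53 ± 0.25 for CDGC6 minus control, -0.28 ± 0.25 for Dnd1-KD minus control and 2.59 ± 0.25 for CDGC1 minus CDGC6 (± SE). Dnd1-KD was 1.30-fold lower than control for Eomes, against 12.2-fold lower for T. The end of Eomes is overlapped in GENCODE by the antisense gene Gm33460, and no source used here says that strand was kept, so reads of both cannot be told apart.

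Levels of the T-box pair can be compared within a library because FPKM is per length. In CDGC1, T was below Eomes in each library, at 53.9 against 68.4 FPKM in library 1 and 77.1 against 80.0 FPKM in library 2. The deposited intervals overlapped in CDGC1 library 2 but not in library 1. In CDGC6 and control, T stood above Eomes in each library. In Dnd1-KD the order was that of CDGC1, with T at 1.63 and 1.79 FPKM below Eomes at 2.37 and 2.71 FPKM. These orders compare levels, and no test was made of them.

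Mesp1, a basic helix-loop-helix factor of the earliest cardiac mesoderm known to be downstream of Eomes, stayed near the floor in every group. It lies at chr7:79792241-79793788 on the minus strand. Its level was 0.322 and 0.0973 FPKM in CDGC1, 0.172 and 0.166 FPKM in CDGC6, 0.0777 and 0.133 FPKM in Dnd1-KD, and 0.145 and 0.176 FPKM in control. These values rested on 3 to 8 fragments per library. CDGC1 and CDGC6 each overlapped control. Both Dnd1-KD values lay below both control values, but on 4 and 3 fragments in Dnd1-KD against 8 and 5 in control. Mesp1 was the one member that failed the filter of at least 1 FPKM in at least 2 libraries, so no difference between groups was fitted for it.

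Mixl1 followed Eomes in the order of the groups. Mixl1 is a paired-like homeobox factor of the streak, needed for definitive endoderm, at chr1:180693043-180697034 on the minus strand. It was at 10.6 and 10.8 FPKM in CDGC1, 4.03 and 1.77 FPKM in CDGC6, 0.374 and 0.390 FPKM in Dnd1-KD, and 0.940 and 1.10 FPKM in control. No 2 groups overlapped, and the CDGC1 libraries were nearly equal. The log2 difference was 2.53 ± 0.26 for CDGC1 minus control, 0.89 ± 0.26 for CDGC6 minus control, -0.55 ± 0.26 for Dnd1-KD minus control and 1.65 ± 0.26 for CDGC1 minus CDGC6 (± SE). On means, Dnd1-KD was 2.67-fold lower than control, a larger ratio than that of Eomes at lower FPKM. Its Dnd1-KD values rested on 46 and 21 fragments.

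**Figure D1:**
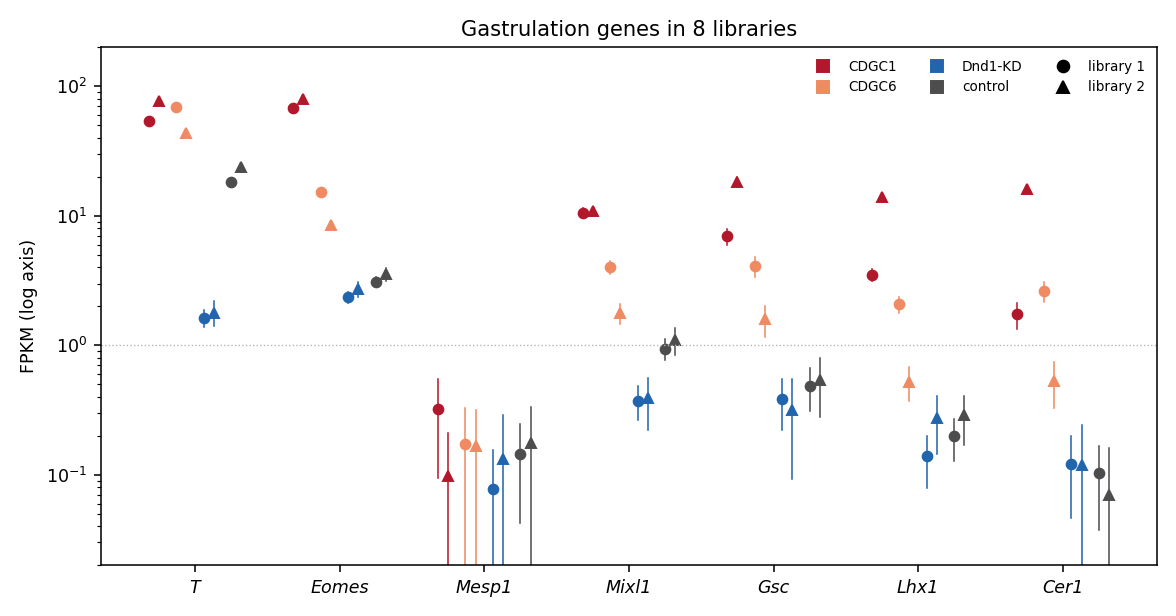
FPKM of the 7 genes (log axis) in each library, with circles for library 1, triangles for library 2, vertical lines for the deposited interval (cut at the lower edge of the plot) and a dotted line at 1 FPKM. T in Dnd1-KD sits at 1.63 and 1.79 FPKM below the controls at 18.1 and 23.7 FPKM, Eomes is apart in all 4 groups, and Mesp1 is below 1 FPKM throughout.

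Gsc and Lhx1, homeobox genes of the organizer and anterior mesendoderm, were low in ES cells and present in the derived lines. Gsc (chr12:104471209-104473330, minus strand) was at 6.96 and 18.4 FPKM in CDGC1, 4.10 and 1.59 FPKM in CDGC6, 0.385 and 0.319 FPKM in Dnd1-KD, and 0.489 and 0.538 FPKM in control. Its groups did not overlap, but the CDGC1 libraries differed 2.64-fold and the CDGC6 libraries 2.58-fold. The Gsc values rested on 22 and 8 fragments in Dnd1-KD and on 30 and 17 in control, and the deposited intervals of these groups overlapped. The Gsc log2 difference was 3.04 ± 0.47 for CDGC1 minus control, 1.26 ± 0.47 for CDGC6 minus control and -0.16 ± 0.47 for Dnd1-KD minus control (± SE). CDGC1 minus CDGC6 was 1.77 ± 0.47 for Gsc. Lhx1 (chr11:84518284-84525535, minus strand), a LIM homeobox factor needed for head formation, was at 3.51 and 14.1 FPKM in CDGC1, 2.07 and 0.525 FPKM in CDGC6, 0.140 and 0.274 FPKM in Dnd1-KD, and 0.199 and 0.289 FPKM in control. Dnd1-KD and control overlapped, and the derived lines lay above both. The Lhx1 entry started at 84517982 in both CDGC1 libraries, at 84518213 in CDGC6 library 1 and at 84519379 in the others. It ended at 84525652 and 84526095 in CDGC1 libraries 1 and 2, and at 84525534 in the others. The Lhx1 values compared thus rest on entries with different bounds. The Lhx1 log2 difference was 2.73 ± 0.58 for CDGC1 minus control, 0.80 ± 0.58 for CDGC6 minus control, -0.04 ± 0.58 for Dnd1-KD minus control and 1.93 ± 0.58 for CDGC1 minus CDGC6 (± SE).

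Cer1, a secreted antagonist of NODAL and BMP ligands made by anterior endoderm, varied most between libraries of a line. It lies at chr4:82881751-82885148 on the minus strand, and was at 1.74 and 16.1 FPKM in CDGC1, 2.62 and 0.534 FPKM in CDGC6, 0.122 and 0.119 FPKM in Dnd1-KD, and 0.103 and 0.0699 FPKM in control. The CDGC1 libraries differed 9.26-fold and enclosed the higher CDGC6 value, so the derived lines overlapped. All 4 lay above the ES cell libraries. The Cer1 log2 difference was 2.65 ± 0.83 for CDGC1 minus control, 1.12 ± 0.83 for CDGC6 minus control, 0.04 ± 0.83 for Dnd1-KD minus control and 1.54 ± 0.83 for CDGC1 minus CDGC6 (± SE). The control values rested on 10 and 2 fragments and those of Dnd1-KD on 10 and 4, so no fold is given. In CDGC1 library 2 the Cer1 entry also ran further past the end of the gene than in the other 7 libraries, to 82878791 and not 82881751, and that of Gsc to 104467077 and not 104471209. The fragments differed in the same direction as FPKM, numbering 74 and 717 for Cer1 in CDGC1 libraries 1 and 2, and 186 and 514 for Gsc.

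A gene was counted as higher or lower where the libraries of the groups did not overlap and the means differed at least 2-fold. In CDGC1 against control 6 of the 7 genes were higher, where 9.95% of the 11898 units that passed the filter were. In CDGC6 against control the same 6, T, Eomes, Mixl1, Gsc, Lhx1 and Cer1, were higher, against 4.93% of units. In Dnd1-KD against control T and Mixl1 were lower, 2 of 7, against 3.88% of units. In CDGC1 against CDGC6 Eomes, Mixl1, Gsc and Lhx1 were higher, 4 of 7, against 8.01% of units. Nothing is read from these shares, because the genes were chosen with the values in view. 3 of the 7, Gsc, Lhx1 and Cer1, passed the filter through the derived lines alone, since both ES groups were below 1 FPKM. T and Eomes were at 1 FPKM or above in all 8 libraries and Mixl1 in 5. The comparisons against control share the control libraries.

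**Figure D2:**
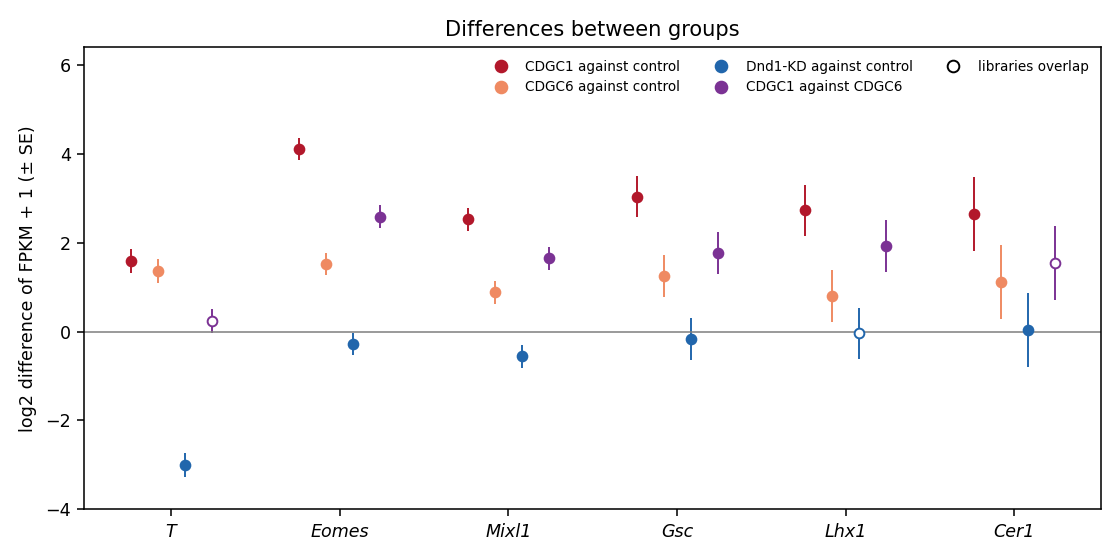
Log2 difference of FPKM + 1 (vertical axis) for the 6 genes that passed the filter, for CDGC1, CDGC6 and Dnd1-KD minus control and for CDGC1 minus CDGC6, with bars for the SE of the fit and open points where the libraries overlapped. T is at -3.00 in Dnd1-KD while Eomes is at -0.28, and Cer1 has the widest bars (0.83).

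Libraries of one line differed in a pattern shared by several of these genes. The difference of log2(FPKM + 1) between library 2 and library 1 was centred on its median over all units. In CDGC1, library 2 was above library 1 by 2.60 for Cer1, 1.70 for Lhx1 and 1.24 for Gsc, and 99.5%, 99.0% and 98.3% of units differed less between these libraries. T (0.47), Eomes (0.18) and Mixl1 (-0.02) differed less there. In CDGC6 it was library 1 that was higher, for all 6 genes that passed the filter. Its library 2 minus library 1 ran between -0.62 for T and -1.21 for Cer1, and for the other 5 genes 96.6% to 98.4% of units differed less. In Dnd1-KD the 6 genes lay between -0.04 and 0.19. In control they lay between -0.05 and 0.37, and the 0.37 of T was more than that of 94.9% of units.

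Other organizer and endoderm genes differed between the CDGC1 libraries as well. Of the 15 tested genes of a list of organizer and definitive endoderm genes, which leaves the members out, 8 were higher in library 2 by at least 0.5 and 0 were lower by that much, against 6.56% and 3.08% of all units. Foxa2, a forkhead factor of anterior streak and endoderm, was at 8.15 and 38.6 FPKM in CDGC1, 5.74 and 2.71 FPKM in CDGC6, 0.482 and 0.539 FPKM in Dnd1-KD, and 0.229 and 0.214 FPKM in control. Chrd, a BMP antagonist of the organizer, was at 2.22 and 9.35 FPKM in CDGC1, 2.75 and 1.89 FPKM in CDGC6, 0.641 and 0.439 FPKM in Dnd1-KD, and 0.902 and 0.794 FPKM in control. Both genes thus had the higher CDGC1 value in library 2 and the higher CDGC6 value in library 1, as Gsc, Lhx1 and Cer1 did. In CDGC6, 13 of the 15 were higher in library 1, with a median of -0.21, where centring puts 50.0% of all units higher in library 2. Of them 1, Foxa2, was higher by at least 0.5, against 3.69% of all units. Of the lists described below, CDGC6 library 1 was higher for 14 of 18 cell adhesion genes and 16 of 25 signals. It was higher for 10 of 18 streak and mesoderm genes, near the share of all units. Such leans were not particular to CDGC6. Library 1 was higher for 16 of 25 signals in CDGC1 and for 19 of 25 in Dnd1-KD. In control, library 2 was higher for 14 of 18 cell adhesion genes. Foxa2 and Chrd were picked after their values were seen. Both were below 1 FPKM in the ES groups and passed the filter through the derived lines alone, so nothing is read from their tests. In CDGC1 against control the log2 difference was 3.96 ± 0.65 for Foxa2 and 1.64 ± 0.50 for Chrd (± SE).

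**Figure D3:**
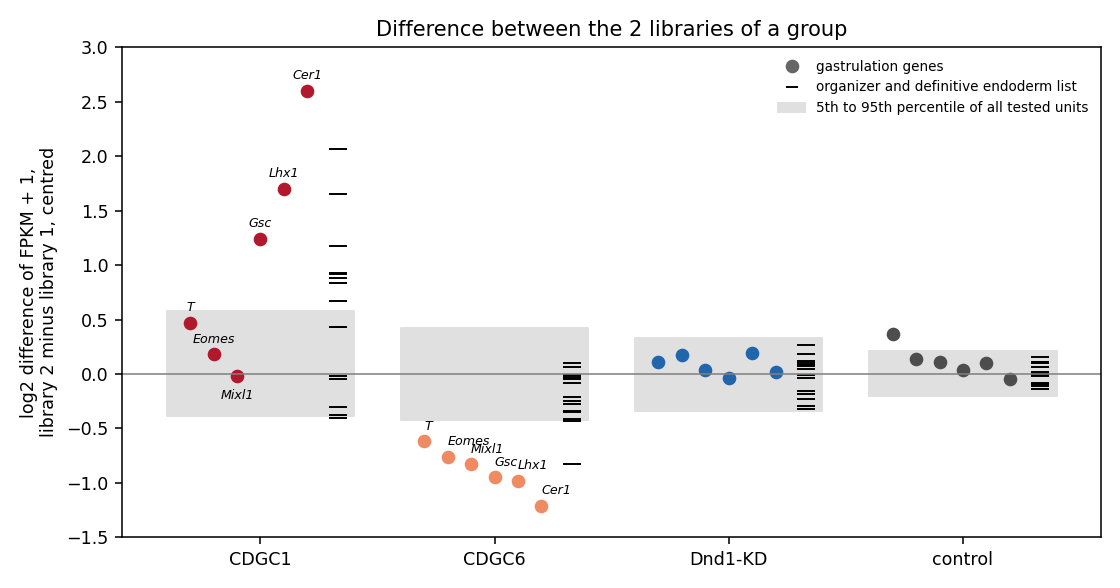
Library 2 minus library 1 in log2(FPKM + 1), centred on the median of all units, for the gastrulation genes (circles, in the order T, Eomes, Mixl1, Gsc, Lhx1, Cer1) and for 15 organizer and definitive endoderm genes (dashes) in each group, with the 5th to 95th percentile of all tested units in grey. Cer1, Lhx1 and Gsc rise above the grey band in CDGC1, and the 6 genes lie below it in CDGC6.

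Markers of other cell types were set beside these values. The summed level of 14 extraembryonic endoderm markers was 19.3 and 52.9 FPKM in CDGC1, 7.32 to 11.8 FPKM in CDGC6, 12.6 to 13.2 FPKM in Dnd1-KD and 5.23 to 5.91 FPKM in control. It moved with Cer1, Lhx1 and Gsc in CDGC1, where Foxa2 alone gave 8.15 and 38.6 FPKM. Of the defining markers, Ttr was at 0 in all 8 libraries, Afp was at 0.0373 and 0.0602 FPKM in CDGC1, Hnf4a was at 0 in both CDGC1 libraries, and Sox17, which definitive endoderm also uses, was at 0.0456 and 0.864 FPKM there. Others of the 14 lay on both sides of control in CDGC1. Gata4, Sox7 and Amn were below control there, while Pth1r, Dab2, Gata6 and Pdgfra were above it. Gata4 was at 0.176 and 0.258 FPKM in CDGC1 against 0.724 and 0.692 FPKM in control. Sox7 was at 0.0516 and 0.0108 FPKM in CDGC1 against 0.364 and 0.294 FPKM in control. Pth1r, a hormone receptor, was at 7.05 and 5.13 FPKM in CDGC1 against 0.929 and 0.577 FPKM in control, Dab2, an endocytic adaptor, at 2.59 and 5.45 FPKM against 2.04 and 2.02 FPKM in control, and Gata6 at 0.441 and 1.35 FPKM against 0.238 and 0.236 FPKM in control. Of 10 trophoblast markers, Tpbpa and Prl3d1 were at 0 in all 8 libraries and Elf5 reached at most 0.0403 FPKM. Their sum was 23.7 to 26.2 FPKM in CDGC1, 23.7 to 24.3 in CDGC6, 37.3 to 44.2 in Dnd1-KD and 36.8 to 38.2 in control, so it did not follow Eomes. The sum of 10 fibroblast markers was 51.5 to 64.7 FPKM in CDGC1, 38.5 to 47.5 in CDGC6, 73.6 to 76.0 in Dnd1-KD and 17.9 to 20.3 in control. Acta2, a smooth muscle actin, gave 64.9 and 62.7 FPKM of the Dnd1-KD sums, and without it the other 9 summed to 41.0 and 39.1 FPKM in CDGC1, 26.0 and 33.6 FPKM in CDGC6, 11.1 and 10.9 FPKM in Dnd1-KD, and 7.68 and 8.32 FPKM in control. The 8 neural markers summed to between 57.9 and 64.1 FPKM in every library, but single ones moved in opposite directions. Nes, an intermediate filament gene, was at 57.9 and 55.2 FPKM in CDGC1 against 22.0 and 23.3 FPKM in control, Tubb3, a neuronal tubulin, at 4.77 and 6.06 FPKM against 38.2 and 38.2 FPKM in control, and Pax6 at 0 and 0 FPKM against 1.91 and 1.91 FPKM in control. The 10 ES cell markers summed to 1617 to 1751 FPKM in CDGC1, 4388 to 5487 in CDGC6, 2052 to 2773 in Dnd1-KD and 4315 to 4587 in control. The part these cell types had in the levels of the gastrulation genes was not tested.

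Signals that reach the streak changed in both directions. The list of 25 tested units holds NODAL, WNT, BMP and FGF genes, and calls come from limma over all units at an adjusted p under 0.05. In CDGC1 against control 16 were higher and 5 lower, against 23.5% and 27.0% of all units, with a median log2 difference of 0.66 (all units -0.03). In CDGC6 against control 7 were higher and 1 lower, against 8.46% and 10.2%, with a median of 0.03 (all units -0.01). In Dnd1-KD against control 6 were higher and 9 lower, against 20.7% and 15.5%, with a median of -0.31 (all units 0.02). In CDGC1 against CDGC6 15 were higher and 5 lower, against 23.0% and 24.1%, with a median of 0.49 (all units -0.02). The CDGC6 count of 7 fell to 3 without CDGC6 library 1 or either control library, the 1 lower in CDGC6 became 2 without either Dnd1-KD library, and the 9 lower in Dnd1-KD fell to 3 without either control library or Dnd1-KD library 2. Without these libraries the 6 higher in Dnd1-KD became 4, 3 and 4.

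Wnt8a, a WNT ligand of the streak, rose with T in both derived lines. It was at 63.3 and 79.3 FPKM in CDGC1, 17.9 and 14.7 FPKM in CDGC6 and 5.65 and 5.34 FPKM in control, a log2 difference of 3.47 ± 0.16 for CDGC1 (limma, adjusted p = 2.28e-05) and 1.41 ± 0.16 for CDGC6 (0.00415). Fgf8, needed for cells to leave the streak, was at 128 and 158 FPKM in CDGC1, 43.0 and 22.1 FPKM in CDGC6, 0.338 and 0.243 FPKM in Dnd1-KD, and 2.04 and 2.48 FPKM in control. The Fgf8 log2 difference from control was 5.46 ± 0.29 in CDGC1 (adjusted p = 4.19e-05), 3.29 ± 0.29 in CDGC6 (0.00199) and -1.34 ± 0.29 in Dnd1-KD (0.0168). Its Dnd1-KD call was lost without either control library or either Dnd1-KD library (0.0579 to 0.0876). Wnt3, the ligand that starts streak formation, was at 51.1 and 37.7 FPKM in CDGC1 against 6.30 and 4.51 FPKM in CDGC6, a log2 difference of 2.82 ± 0.19 (adjusted p = 1.24e-04), so it differed between the derived lines as Eomes did. Bmp4, whose product induces the streak from neighbouring tissue, was by contrast at 1.32 and 1.02 FPKM in CDGC1, 10.3 and 11.2 FPKM in CDGC6 and 20.7 and 22.5 FPKM in control. Bmp4 fell in CDGC1 (log2 difference -3.39 ± 0.11, adjusted p = 8.24e-06) and in CDGC6 (-0.94 ± 0.11, 0.00472). Gdf3, a NODAL-like ligand, was at 1.91 and 2.30 FPKM in CDGC1 against 27.8 and 28.1 FPKM in control (-3.22 ± 0.15, adjusted p = 2.78e-05).

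In Dnd1-KD, Lef1, Sp5 and Tdgf1 fell beside T, while Furin and Smad4 rose. Furin and Smad4 were also higher in CDGC1, where T was high. Their log2 differences there were 0.88 ± 0.11 and 0.39 ± 0.08 (limma adjusted p = 0.00114 and 0.00779). Lef1, a DNA-binding partner of beta-catenin, was at 2.76 and 2.69 FPKM in Dnd1-KD against 8.54 and 7.50 FPKM in control (log2 difference -1.27 ± 0.11, limma adjusted p = 0.00134). Lef1 was also lower in CDGC1, at 1.20 and 0.902 FPKM (-2.14 ± 0.11, adjusted p = 3.36e-05), where T was high. Its rise in CDGC6 (0.59 ± 0.11, adjusted p = 0.0176) lost the call without any CDGC6 or control library (0.0569 to 0.130). Sp5, a WNT target in the streak, was at 3.62 and 2.69 FPKM in Dnd1-KD against 16.9 and 21.6 FPKM in control (-2.28 ± 0.16, adjusted p = 6.23e-04). Tdgf1, the NODAL co-receptor, was at 112 and 70.1 FPKM in Dnd1-KD against 252 and 234 FPKM in control (-1.45 ± 0.21, adjusted p = 0.00469). The joint unit of Lefty1 and Lefty2, NODAL antagonists whose reads were not split here, was at 217 and 288 FPKM in CDGC1, 301 and 379 FPKM in CDGC6, 14.0 and 8.08 FPKM in Dnd1-KD and 50.8 and 55.1 FPKM in control. It was added after its values were seen, and differed from control by 2.22 ± 0.26 in CDGC1, 2.65 ± 0.26 in CDGC6 and -2.21 ± 0.26 in Dnd1-KD (adjusted p = 8.86e-04, 0.00264 and 0.00281). Its Dnd1-KD libraries were low and its derived-line libraries high, the same order against control as T. Furin, a protease that matures NODAL, was at 12.2 and 11.7 FPKM in Dnd1-KD against 6.13 and 6.85 FPKM in control (0.79 ± 0.11, adjusted p = 0.00435), and Smad4, the shared SMAD, at 43.7 and 42.7 FPKM against 29.1 and 29.6 FPKM in control (0.54 ± 0.08, 0.00505).

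Of 28 streak and mesoderm genes beyond the members, 18 were tested. In CDGC1 against control 5 were higher and 9 lower (all units 23.5% and 27.0%), with a median log2 difference of -0.32. In CDGC6 against control 1 was higher and 2 lower, near the shares of all units (8.46% and 10.2%), with a median of 0.01. In Dnd1-KD against control 8 were higher and 2 lower (all units 20.7% and 15.5%), with a median of 0.13. Of these 18 genes, 3 (Mesp2, Gata4 and Snai2) reached 1 FPKM in Dnd1-KD alone and so passed the filter only through the group where they are high. 1 more (Aplnr) did so in CDGC1 alone. Kdr, also called higher in Dnd1-KD, was at 2.25 and 2.98 FPKM there. It otherwise reached 1 FPKM only in CDGC1 library 1 (1.22 FPKM), so it too needed the Dnd1-KD libraries to pass the filter. Nothing is read from the calls of these genes in those groups. In CDGC1 against CDGC6 3 were higher and 7 lower (all units 23.0% and 24.1%), with a median of -0.09. Without control library 1 the counts became 3 and 5 in CDGC1, 0 and 1 in CDGC6 and 4 and 2 in Dnd1-KD. The 8 higher in Dnd1-KD became 5 without control library 2 or Dnd1-KD library 2. The 2 lower in CDGC6 became 1 without either CDGC6 library or control library 2, and without either CDGC1 library the CDGC6 counts became 2 and 3. In CDGC1 against CDGC6, the 7 lower became 4 without CDGC1 library 1 and 2 without CDGC6 library 2, and the 3 higher became 5 without CDGC1 library 2 and 2 without CDGC6 library 2 or either Dnd1-KD library.

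Fst, an antagonist of activin, was among those that rose, at 107 and 90.9 FPKM in CDGC1, 24.1 and 17.1 FPKM in CDGC6 and 5.08 and 6.08 FPKM in control. Its log2 difference was 3.92 ± 0.24 for CDGC1 (limma, adjusted p = 6.49e-05) and 1.70 ± 0.24 for CDGC6 (0.00814), and the CDGC6 call was lost without control library 1 (0.0608). Rspo3, an enhancer of WNT signalling, rose to 6.01 and 6.20 FPKM in CDGC1, against 0.721 and 1.02 FPKM in control (1.93 ± 0.15, adjusted p = 1.47e-04). Tcf15, a basic helix-loop-helix factor of paraxial mesoderm, fell to 0.435 and 0.584 FPKM in CDGC1, against 46.8 and 47.1 FPKM in control (-4.99 ± 0.47, adjusted p = 3.60e-04). Hand1, a factor of lateral and extraembryonic mesoderm and of trophoblast, was at 0.104 and 0.117 FPKM in CDGC1, 0.338 and 0.394 FPKM in CDGC6, 6.28 and 5.30 FPKM in Dnd1-KD and 2.45 and 1.96 FPKM in control. Hand1 thus fell in CDGC1 (-1.52 ± 0.12, adjusted p = 1.54e-04) and CDGC6 (-1.23 ± 0.12, 0.00242) and rose in Dnd1-KD (1.08 ± 0.12, 0.00222), the reverse of T. Dll1, a gene of presomitic mesoderm, also rose in Dnd1-KD, by 1.38 ± 0.20 (adjusted p = 0.00476). Gata4, a gene of heart and endoderm, was higher there by 0.91 ± 0.10, but it passed the filter through Dnd1-KD alone. Cdx2, a posterior and trophoblast factor, was lower in CDGC6 than in control (-0.95 ± 0.16, adjusted p = 0.0135), a call lost without any CDGC6 or control library (0.0507 to 0.0862).

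Of 22 organizer and definitive endoderm genes listed 15 were tested, and the counts called lay near the shares of all units in several comparisons. In CDGC1 against control 5 were higher and 3 lower (all units 23.5% and 27.0%, median log2 difference of the list 0.49). In CDGC6 against control these were 2 and 1 (all units 8.46% and 10.2%, median -0.02), in Dnd1-KD against control 3 and 2 (20.7% and 15.5%, median 0.06), and in CDGC1 against CDGC6 4 and 3 (23.0% and 24.1%, median 0.25). Frzb passed the filter through CDGC1 alone. Gata6 needed the Dnd1-KD libraries (1.29 and 1.70 FPKM) to pass it, since it otherwise reached 1 FPKM only in CDGC1 library 2 (1.35 FPKM). Nothing is read from the calls of Frzb, or from that of Gata6 in Dnd1-KD (1.01 ± 0.26). Without CDGC1 library 1, 8 rose in CDGC1 against control and 9 in CDGC1 against CDGC6, while without library 2 these were 6 and 4, with 5 lower in each. In CDGC6 the counts became 4 and 1 without either CDGC1 library and 2 and 0 without any CDGC6 or control library. In Dnd1-KD they became 1 and 0 without control library 1, 2 and 0 without control library 2 or either Dnd1-KD library, and 3 and 1 without either CDGC6 library. Otx2, a homeobox factor of anterior epiblast, was at 25.5 and 35.8 FPKM in CDGC1, 38.4 and 27.7 FPKM in CDGC6 and 10.1 and 9.30 FPKM in control, and it rose in CDGC1 (1.55 ± 0.20, limma adjusted p = 0.00135) and in CDGC6 (1.66 ± 0.20, 0.00557). Frzb, a secreted WNT antagonist, was at 7.70 and 5.80 FPKM in CDGC1 against 0.105 and 0.0452 FPKM in control (2.84 ± 0.15). Foxa3, related to Foxa2, was at 0.0191 and 0.0154 FPKM in CDGC1 against 0.956 and 1.05 FPKM in control (-0.98 ± 0.08, adjusted p = 1.66e-04), so it fell where Foxa2 rose. Trh, a hormone precursor gene, was at 28.0 and 55.8 FPKM in CDGC1 against 688 and 672 FPKM in CDGC6 (-4.07 ± 0.30, adjusted p = 1.83e-04), and CDGC6 was above control at 110 and 124 FPKM (2.54 ± 0.30, adjusted p = 0.00495). Gpc4, a glypican, rose in CDGC1 (1.05 ± 0.11, adjusted p = 5.74e-04), and Flrt3, an adhesion protein of anterior endoderm, rose in Dnd1-KD to 3.55 and 3.72 FPKM, against 1.30 and 1.35 FPKM in control (adjusted p = 0.00114). The calls of Trh and Gpc4 in Dnd1-KD (-1.16 ± 0.30 and 0.68 ± 0.11, adjusted p = 0.0279 and 0.00716) and of Gpc4 in CDGC6 (-0.59 ± 0.11, 0.0194) were lost when 1 library was left out. For Trh this was any CDGC6, control or Dnd1-KD library. For Gpc4 it was control library 1 in Dnd1-KD, and any CDGC6 or control library in CDGC6.

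**Figure D4:**
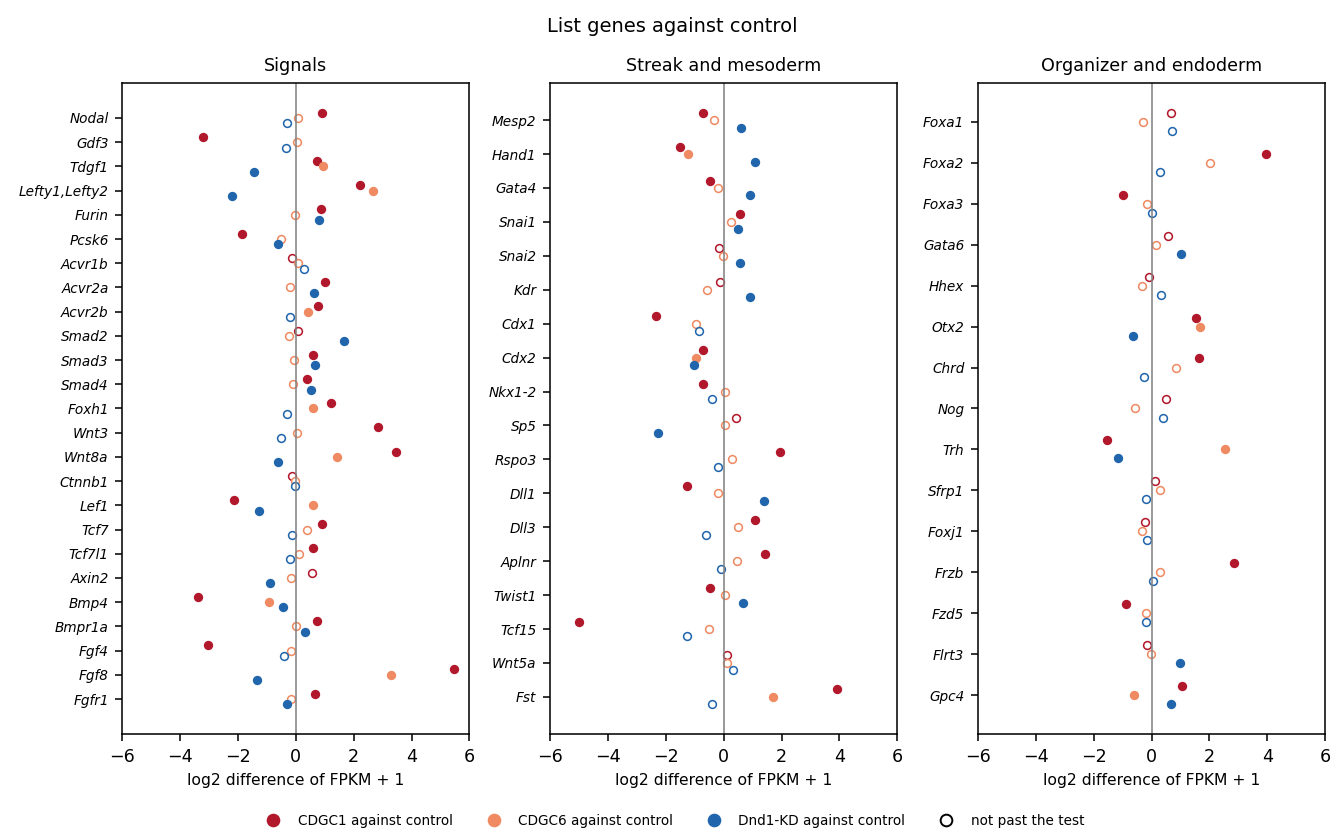
Log2 difference of FPKM + 1 (horizontal axes) from control for the tested genes of the signal, streak and mesoderm, and organizer and endoderm lists, in CDGC1, CDGC6 and Dnd1-KD. Filled points passed limma's test at an adjusted p under 0.05. Fgf8 lies at 5.46 in CDGC1 and 3.29 in CDGC6, and Tcf15 at -4.99 in CDGC1.

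Of 15 other T-box genes listed 5 passed the filter, 2 of them (Tbx4 and Tbx15) through Dnd1-KD alone, the group where they are high. Of the 5, 0 were higher and 4 lower in CDGC1 against control (all units 23.5% and 27.0%, median log2 difference of the list -0.48), and in CDGC6 against control 0 and 1 (8.46% and 10.2%, median -0.07). In Dnd1-KD against control 4 were higher and 0 lower (20.7% and 15.5%, median 0.75), and nothing is read from this count because the filter fixed Tbx4 and Tbx15. In CDGC1 against CDGC6 0 were higher and 3 lower (23.0% and 24.1%, median -0.43). Without either control library the 1 in CDGC6 became 0, and the 4 in Dnd1-KD became 2, as they did without Dnd1-KD library 2. The 3 in CDGC1 against CDGC6 became 2 without any CDGC1, CDGC6 or control library. Tbx3, a factor of naive ES cells, was at 0.169 and 0.0766 FPKM in CDGC1 against 8.73 and 7.88 FPKM in control (-3.05 ± 0.24, limma adjusted p = 1.62e-04). Tbx15, a factor of limb and skin mesenchyme, was at 1.35 and 1.62 FPKM in Dnd1-KD against 0.329 and 0.374 FPKM in control (0.88 ± 0.10). Tbx4, a hindlimb factor, was at 1.46 and 1.57 FPKM in Dnd1-KD against 0.481 and 0.503 FPKM in control (0.75 ± 0.09). Nothing is read from the calls of Tbx15 and Tbx4 in Dnd1-KD. Tbx4 was lower in CDGC1, at 0.0510 and 0.0924 FPKM (-0.48 ± 0.09, adjusted p = 0.00460), with 0.03 under quantile normalization. Mga, a T-box partner of MAX, was lower in CDGC1, at 19.9 and 18.8 FPKM against 27.1 and 27.9 FPKM in control (-0.48 ± 0.09, adjusted p = 0.00452). The calls of Mga in CDGC6 (-0.50 ± 0.09, adjusted p = 0.0149) and Dnd1-KD (0.32 ± 0.09, 0.0311) were lost without either control library (0.0920 to 0.161), the CDGC6 call also without CDGC6 library 2 (0.0585) and the Dnd1-KD call without Dnd1-KD library 2 (0.140). The calls of Tbx20, a cardiac factor, in CDGC1 (-0.75 ± 0.23, adjusted p = 0.0333), in Dnd1-KD (0.79 ± 0.23, 0.0373) and between the derived lines (-0.68 ± 0.23, 0.0484) were also lost without either control library (0.0550 to 0.180). Both Tbx20 calls that involve CDGC1 were lost without either CDGC1 library (0.0573 to 0.170), that between the derived lines without either CDGC6 library (0.0534 and 0.201), and that in Dnd1-KD without Dnd1-KD library 2 (0.172).

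Leaving the epiblast involves a change of cell adhesion, and the 18 genes listed for it were all tested. In CDGC1 against control 9 were higher and 7 lower (all units 23.5% and 27.0%, median log2 difference of the list 0.28). In CDGC6 against control 2 were higher and 1 lower, near the shares of all units (8.46% and 10.2%, median 0.01). In Dnd1-KD against control 10 were higher and 2 lower (20.7% and 15.5%, median 0.39), and in CDGC1 against CDGC6 8 and 7 (23.0% and 24.1%, median 0.24). Crb2 passed the filter through CDGC1 alone and Snai2 through Dnd1-KD alone, so nothing is read from their calls. Without either control library the CDGC6 counts became 0 and 0, and the Dnd1-KD counts became 3 and 0 without control library 1, and 6 and 0 without control library 2. Without either Dnd1-KD library the CDGC6 counts became 2 and 0, and without CDGC6 library 1 or 2 they became 1 and 1 or 1 and 0, while without Dnd1-KD library 2 the Dnd1-KD counts became 6 and 1. Vim, the intermediate filament of mesenchymal cells, was at 899 and 702 FPKM in CDGC1, 295 and 309 FPKM in Dnd1-KD and 112 and 132 FPKM in control, and it rose in both CDGC1 (2.70 ± 0.15, limma adjusted p = 5.05e-05) and Dnd1-KD (1.30 ± 0.15, 0.00270). The epithelial Cdh1 was at 81.5 and 76.7 FPKM in CDGC1 against 172 and 164 FPKM in CDGC6 (-1.08 ± 0.06, adjusted p = 8.14e-05), and the tight junction gene Ocln at 0.0823 and 0.0948 FPKM in CDGC1 against 4.38 and 4.52 FPKM in control (-2.32 ± 0.10, adjusted p = 1.72e-05). Cdh2, the neural and mesodermal cadherin, was at 22.5 and 19.1 FPKM in Dnd1-KD against 8.06 and 8.91 FPKM in control (1.20 ± 0.17, adjusted p = 0.00488). Vim and Cdh2 were thus higher in Dnd1-KD, where T was 12.2-fold lower. Cdh2, like Vim, was also higher in CDGC1, where T was high, at 21.5 and 28.8 FPKM (1.45 ± 0.17, adjusted p = 9.50e-04). Crb2, an apical polarity gene needed for cells to leave the streak, was higher in CDGC1 (1.39 ± 0.09). There Mmp2, a matrix metalloprotease, fell (-1.87 ± 0.08, adjusted p = 2.05e-05). Crb3, an epithelial polarity gene, rose in Dnd1-KD (0.91 ± 0.12, adjusted p = 0.00348). Snai2 was higher in Dnd1-KD by 0.57 ± 0.10, but it passed the filter through Dnd1-KD alone. The calls of Mmp2, Crb3 and Itga5 in CDGC6 (0.49 ± 0.08, 0.57 ± 0.12 and -0.82 ± 0.21, adjusted p = 0.0138, 0.0248 and 0.0432) were lost without either control library. Those of Crb3 and Itga5 were also lost without either CDGC6 library, and that of Itga5 without either Dnd1-KD library.

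Over the 5 lists together, 78 units were tested. The 18 called in CDGC6 against control became 7 without control library 1, 8 without control library 2 and 11 without CDGC6 library 1. The 43 called in Dnd1-KD against control became 19, 22 and 24 without control library 1, control library 2 and Dnd1-KD library 2.

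The units most like T and Eomes across libraries were sought by Pearson's r of log2(FPKM + 1) over the 8 libraries among 10160 units, as a description. For T these were Cetn2, a centrin (0.995), Pus7l (0.994), Kars (0.991), Cdca7 (0.990) and Xkr5 (0.990). Cetn2 was at 31.2 and 36.2 FPKM in CDGC1, 31.9 and 31.2 FPKM in CDGC6, 14.4 and 13.8 FPKM in Dnd1-KD, and 23.9 and 25.3 FPKM in control, the same order of groups as T over a narrower range. For Eomes they were Epha7, an ephrin receptor (0.998), Spire1 (0.997), Nrcam (0.997), Dclk1 (0.996) and Prom1 (0.996). Dclk1, a doublecortin-like kinase, was at 12.0 and 11.2 FPKM in CDGC1, 2.45 and 1.67 FPKM in CDGC6, 0.239 and 0.336 FPKM in Dnd1-KD, and 0.594 and 0.568 FPKM in control. The 8 points fall into 4 groups of 2, so such r values rest mainly on the group levels.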

How the data were processed

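The authors deposited 1 Cufflinks gene table per library with FPKM and an interval for each entry, per the file headers. Per the labels' protocols, total RNA was taken with RNeasy kits and TruSeq RNA v2 libraries were made. Cufflinks and Cuffdiff, TopHat2 and Bowtie, and the build mm10 are listed in the submitters' processing notes; versions and roles are not given in the sources used here. Unnamed entries, which made up 76.8% to 85.6% of each library's summed FPKM, and small RNA genes were left out of the fit. FPKM were summed per symbol, symbols that any table joined were 1 unit, and units with at least 1 FPKM in 2 of 8 libraries were tested (11898, of which 658 held more than 1 symbol and 641 were listed at 0 in some library, which can be a failed estimate). limma 3.58.1 in R 4.3.3 was fitted on log2(FPKM + 1) with the 8 libraries in 1 fit of group means (two-sided, eBayes with a trend), with Benjamini-Hochberg adjustment over all units and a threshold of 0.05. A fold change on this scale understates that of low genes. Fragments were derived as the square of 2 × FPKM over the half-width of the interval, and precision is limited by their number and by n = 2. They are approximate, because the intervals can hold more than counting error.

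The gastrulation genes and the lists were chosen with earlier results of these data known. From each list, up to 4 genes with the smallest p per comparison were named, from units of 1 symbol with no library at 0. Foxa2, Chrd, the Lefty unit and Fgf8 in CDGC1 and Dnd1-KD were added after their values were seen. Symbols matched GENCODE vM21 and RefSeq windows (GRCm38.p6). Alternatives were other pseudocounts, filters, normalizations, the compared groups alone, a replicate block, the highest entry of a unit, and leaving out each library. Python 3.11.15, pandas 2.3.3, numpy 2.4.6 and matplotlib 3.10.9 were used.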

Additional observations from a re-analysis of the deposited data

Results flagged for a closer look

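For 4 of the gastrulation genes, each derived line lay above both control libraries and Dnd1-KD below both, and the difference between these effects was not tested. For T the log2 difference from control was 1.59 in CDGC1, 1.37 in CDGC6 and -3.00 in Dnd1-KD. Eomes gave 4.12 in CDGC1, 1.53 in CDGC6 and -0.28 in Dnd1-KD. Mixl1 gave 2.53 in CDGC1, 0.89 in CDGC6 and -0.55 in Dnd1-KD. Gsc gave 3.04 in CDGC1, 1.26 in CDGC6 and -0.16 in Dnd1-KD. For Eomes and Gsc the Dnd1-KD differences were close to or below their SE of 0.25 and 0.47. Gsc rested on 22 and 8 fragments in Dnd1-KD and on 30 and 17 in control.

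An entry with no gene name lay within an Eomes intron in CDGC6 library 1. It was 291 bases long, at 3.28 FPKM from 10 fragments, and no such entry was listed in the other 7 libraries.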

How the results depend on the processing

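Over all units, CDGC6 against control gave 2222 calls, between 421 and 2905 with 1 library left out, and Dnd1-KD against control 4312, between 1360 and 4934. Over the list genes these were 18 (7 to 21) and 43 (19 to 45). Fits that leave out a library keep 1 sample in a group, assumed to vary like the rest. Tbx4 reversed under quantile normalization, to 0.03 in CDGC1 against control and 0.11 in CDGC1 against CDGC6. With the replicate number as a replicate block, calls numbered 5784, 1656, 3926 and 5368 in CDGC1, CDGC6 and Dnd1-KD against control and in CDGC1 against CDGC6. The numbers do not pair the samples: correlations of deviations ran between -0.05 and 0.12. The other totals, over all units and over the 5 lists together, stayed within 1.5 times the main count under the alternatives run. Counts of single lists moved by more in places, as given above. For the list genes only a part of the calls, mainly those of smallest p, was followed singly, and the next counts cover these. Of 84 calls of list genes, 21 were lost without control library 1 and 18 without control library 2, more than under any other alternative. Differences of the gastrulation genes kept their sign under the alternatives run, except T in CDGC1 against CDGC6 (-0.03 and -0.10 without library 2 of CDGC1 or of CDGC6) and Lhx1 in Dnd1-KD (0.01 and 0.04 without control library 2 or Dnd1-KD library 1). They depended on the pseudocount: T in Dnd1-KD was -3.53 at a pseudocount of 0.1 and -1.94 at 5. Depth limits Mesp1 (3 to 8 fragments) and, in ES cells, Cer1 (2 to 10), Gsc (8 to 30) and Lhx1 (18 to 32). The causes were not tested.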
